A study of Mus musculus with 9 samples.

Results

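The serpins, a family of protease inhibitors, were read out in mouse liver as every array probe whose gene name begins with Serpin and whose signal the scanner software called well above background on 3 or more of the 9 arrays. Of 78 Serpin probes on the array 49 met this rule, and they stood for 39 of the 59 Serpin genes carried. The brightest detected probe on average over all arrays stood for each gene. For 29 of the 39 genes that probe was well above background on all 9 arrays, and no Serpin spot was saturated.

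The livers were taken from C57bl/6J males, 16 weeks old, that had eaten 1 of 3 diets for 12 weeks, with 3 livers and 3 arrays in each group. The HFD+APS livers came from mice given a high-fat diet with 60 kcal% fat (Research Diets D12492) mixed with Astragalus polysaccharides (APS), plant carbohydrates, at 40 g per kg of diet. The HFD livers came from mice on that high-fat diet alone, and the chow livers from mice on chow. The submitters' notes say that the livers hybridised were picked from a larger set of mice by HE staining and TG, so the p-values measure the spread between selected livers.

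Serpins share a fold with an exposed loop that a protease cuts as if it were a substrate. The cut makes the loop snap into the body of the serpin and traps the protease in a dead complex, so each inhibitor molecule is used up in the reaction. Hepatocytes secrete many serpins into plasma, where they hold coagulation, fibrinolysis, complement and leukocyte proteases in check. Some members inhibit nothing: Serpina6 and Serpina7 carry cortisol-type and thyroid hormones in plasma, and Serpinh1 is a chaperone of collagen in the endoplasmic reticulum. The letter in a serpin's name gives its clade, a branch of the family tree. Clade A holds the antitrypsin-like plasma serpins and clade B the serpins that stay inside cells.

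Of the detected genes, 17 of the 22 on the array belonged to clade A and 14 of 26 to clade B. Clades C (antithrombin), D (heparin cofactor II), G (C1 inhibitor) and H had their only gene detected, clade E had 2 of 3, clade F 2 of 2 and clade I, the neural serpins, 0 of 2. The members are clustered in the genome: 16 of the clade A genes lay within 0.799 Mb of chromosome 12 (mm9, chr12:104853280-105651977), 10 clade B genes within 1.08 Mb of chromosome 13 and 4 clade B genes within 0.655 Mb of chromosome 1.

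The 5 genes past the threshold in any comparison were Serpina1b, Serpina1c, Serpinb8, Serpine2 and Serpinh1, and the 250 bases before their RefSeq start (GRCm38.p6) are shown because these are the members that moved. Serpina1b and Serpina1c both lie on the minus strand of chromosome 12, with Serpina1d, which was not called, between them. Capitals mark matches, on either strand, to CCAAT, to GTTAAT, to GGGCGG (the GC box), to TATAAA, to TTCNNNGAA (the STAT palindrome) and to GAANNTTC (the heat shock element core); adjoining matches run together.
Serpina1b, chr12:103738190-103738439, minus strand: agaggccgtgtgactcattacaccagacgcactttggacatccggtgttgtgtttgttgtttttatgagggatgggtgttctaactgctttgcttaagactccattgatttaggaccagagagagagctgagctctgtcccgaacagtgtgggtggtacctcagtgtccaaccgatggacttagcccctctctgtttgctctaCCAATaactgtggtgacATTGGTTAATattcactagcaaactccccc
Serpina1c, chr12:103904951-103905200, minus strand: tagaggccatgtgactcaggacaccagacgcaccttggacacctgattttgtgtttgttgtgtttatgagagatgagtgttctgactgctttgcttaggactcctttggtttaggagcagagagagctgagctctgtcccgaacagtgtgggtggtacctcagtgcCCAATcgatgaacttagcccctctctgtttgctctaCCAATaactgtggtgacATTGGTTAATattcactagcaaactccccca
Serpinb8, chr1:107589756-107590005, plus strand: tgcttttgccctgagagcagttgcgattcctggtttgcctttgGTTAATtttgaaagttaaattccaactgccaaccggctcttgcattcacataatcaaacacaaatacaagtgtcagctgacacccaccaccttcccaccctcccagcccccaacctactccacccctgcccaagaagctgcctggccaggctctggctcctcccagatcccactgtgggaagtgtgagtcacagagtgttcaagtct
Serpine2, chr1:79858666-79858915, minus strand: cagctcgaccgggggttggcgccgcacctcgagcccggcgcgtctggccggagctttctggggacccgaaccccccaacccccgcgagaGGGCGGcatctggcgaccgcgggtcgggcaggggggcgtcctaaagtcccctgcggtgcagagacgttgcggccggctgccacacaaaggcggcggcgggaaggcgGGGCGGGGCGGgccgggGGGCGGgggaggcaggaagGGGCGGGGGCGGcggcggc
Serpinh1, chr7:99353240-99353489, minus strand: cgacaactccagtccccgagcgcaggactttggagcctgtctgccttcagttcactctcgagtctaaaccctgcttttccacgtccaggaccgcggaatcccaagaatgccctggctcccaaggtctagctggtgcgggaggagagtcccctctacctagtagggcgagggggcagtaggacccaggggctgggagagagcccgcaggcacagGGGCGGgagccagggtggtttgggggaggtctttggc

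The Serpina1b and Serpina1c stretches matched at 229 of 248 aligned bases, an identity of 92.3%, and both carry CCAAT and GTTAAT matches close to the start. Serpina1d, which was not called, had matches to CCAAT and GTTAAT too. GTTAAT was in 7 of the 31 Serpin genes with a listed promoter and in 6.43% of all 32851 promoter stretches of that length. CCAAT was in 9 of the 31 and in 33.8% of all. GGGCGG was in 6 of the 31, Serpine2 and Serpinh1 among them, and in 32.7% of all, and the Serpine2 stretch was 78.8% G and C. TATAAA was in 7 of the 31 against 12.4% of all, and TTCNNNGAA in 5 against 7.02%. GAANNTTC was in 2 of the 31, Serpina3c and Serpina5, against 6.69% of all. A Serpin gene was counted if any of its listed starts matched, while all promoters were counted by stretch, so the shares are not in like units. The 7 with GTTAAT include the related copies Serpina1b, Serpina1c and Serpina1d. A match is a run of letters, not a shown binding site.

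The probes that read 4 of these genes are shown next, since near-identical relatives exist for several of them and whether a probe also reads a relative's transcript was not tested. Each is 60 bases long, 5′ to 3′, with mm9 positions; a span above 60 bases means that the probe crosses an intron.
Serpina1b, chr12:104968689-104970188, minus strand: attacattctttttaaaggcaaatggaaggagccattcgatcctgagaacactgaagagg
Serpina1c, chr12:105137263-105137322, minus strand: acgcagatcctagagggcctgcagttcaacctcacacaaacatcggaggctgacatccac
Serpinb8, chr1:109499452-109501197, plus strand: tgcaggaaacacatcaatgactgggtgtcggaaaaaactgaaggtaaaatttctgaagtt
Serpine2, chr1:79793476-79796093, minus strand: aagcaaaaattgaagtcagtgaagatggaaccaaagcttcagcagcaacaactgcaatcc

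Signals are given on the log2 scale relative to the array's 75th percentile, so that a negative value is a signal below that percentile. Differences are log2 differences ± SE, and each adjusted p is from limma's 2-sided moderated test over all 17644 features with Benjamini-Hochberg adjustment, with 0.05 as the threshold. Levels were not set against each other between genes, because each probe has its own brightness. The 3 comparisons share their groups and are not independent.

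The arrays lay on 3 slides. The 3 chow arrays shared the first, the 3 HFD arrays and HFD+APS 1 the second, and HFD+APS 2 and HFD+APS 3 the third. Slide and diet therefore cannot be told apart for chow, while HFD+APS 1 can be set against the HFD arrays within a slide. The share of probes well above background was 50.4 to 54.1% on the second slide, against 61.5 to 68.4% on the first and 63.5 to 64.5% on the third. The negative controls were brighter on the second slide. Their median processed signal, before the log2 step, was 5.07 to 6.50 there, against 2.67 to 3.19 on the first and 2.62 to 2.63 on the third. The part of this floor in the values of dim probes was not tested. Hepatocyte markers were bright everywhere but lowest in HFD livers. The mean of 7 such genes (8 listed) was 7.20 to 7.35 in HFD+APS livers, 6.86 to 7.11 in HFD livers and 7.23 to 7.39 in chow livers. In HFD against chow their median difference was -0.36, with 1 of the 7 above 0. Of these 7 Tat fell in HFD against chow (-0.73 ± 0.18, adjusted p = 0.0417) and Cps1 rose in HFD+APS against HFD (1.11 ± 0.19, adjusted p = 0.0347). HFD 3 stood apart from the other HFD arrays. The mean of 20 acute phase genes outside the serpins was 6.69 there, against 4.15 and 4.91 on the other HFD arrays, and the mean of 4 neutrophil markers was 1.44 there, against -1.12 and -1.03. For Serpina3g, Serpina3n, Serpina7, Serpina10, Serpinb9b and Serping1, values without HFD 3 are given too. Chow 2 stood apart from the other chow arrays. It was the highest of the 9 arrays for 19.8% of all features, against 14.1% for HFD 3. Its marker means for Kupffer cells (0.90), neutrophils (-2.51) and stellate cells (-0.19) were the lowest of the 9 arrays.

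HFD against chow asked what the diet did to the family. Of the 39 genes Serpinb8 and Serpinh1 rose, and Serpina1b, Serpina1c and Serpine2 fell. Over all 17644 features 4.55% were called higher and 6.39% lower, so that 2 and 3 of 39 are near the background. The HFD and chow groups did not overlap for 9 Serpin genes with HFD higher and 5 with HFD lower, while 38.9% of all features did not overlap. The median log2 difference of the 39 genes was 0.16, with 23 above 0, against -0.04 over all features. Without HFD 3, and likewise without chow 3, 2 genes were called, Serpina1b and Serpinb8, and without HFD 1 there were 3. For these and the other alternative fits the share of all features called was not worked out.

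HFD+APS against HFD asked what adding the polysaccharides did on the high-fat diet. Serpine2 rose, and Serpinb8 and Serpinh1 fell. Over all features 0.476% were called higher and 1.03% lower. The groups did not overlap for 6 Serpin genes with HFD+APS higher and 8 with HFD+APS lower, against 24.5% of all features not overlapping. The median of the 39 differences was -0.08, with 17 above 0, against 0.00046 over all features. Leaving out HFD 1, HFD 3, HFD+APS 3 or chow 3 left 0 of 39 called in limma, with 12 genes (and 17.9% of all features) at an unadjusted p under 0.05 when all arrays were used, and leaving out chow 1 or HFD+APS 2 left 1. It was likewise 0 with no filter on dim probes and when only the 6 arrays of these groups were fitted. Values within the shared slide, given below for single genes, set HFD+APS 1 alone against the 3 HFD arrays.

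HFD+APS against chow gave no call among the 39 genes in limma, with 10 at an unadjusted p under 0.05, near the 25.2% of all features. Over all features 0.981% were called higher and 2.61% lower. HFD+APS lay wholly above chow for 8 Serpin genes and wholly below for 4, and 30.9% of all features did not overlap. The median of the 39 was 0.04, with 21 above 0, against -0.03 over all features. With array weights 8 of the 39 were called, without HFD+APS 1 there were 3, all lower (Serpina1b, Serpinb3c and Serpinc1), and without HFD 3 there was 1, Serpinb9. The share of all features called in these fits was not worked out, so the counts are no result about the family. Without HFD+APS 1 the HFD+APS arrays left all lie on the third slide. Serpinb3c read -2.51 in HFD+APS 1, against -3.475 and -3.893 on that slide.

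**Figure D1:**
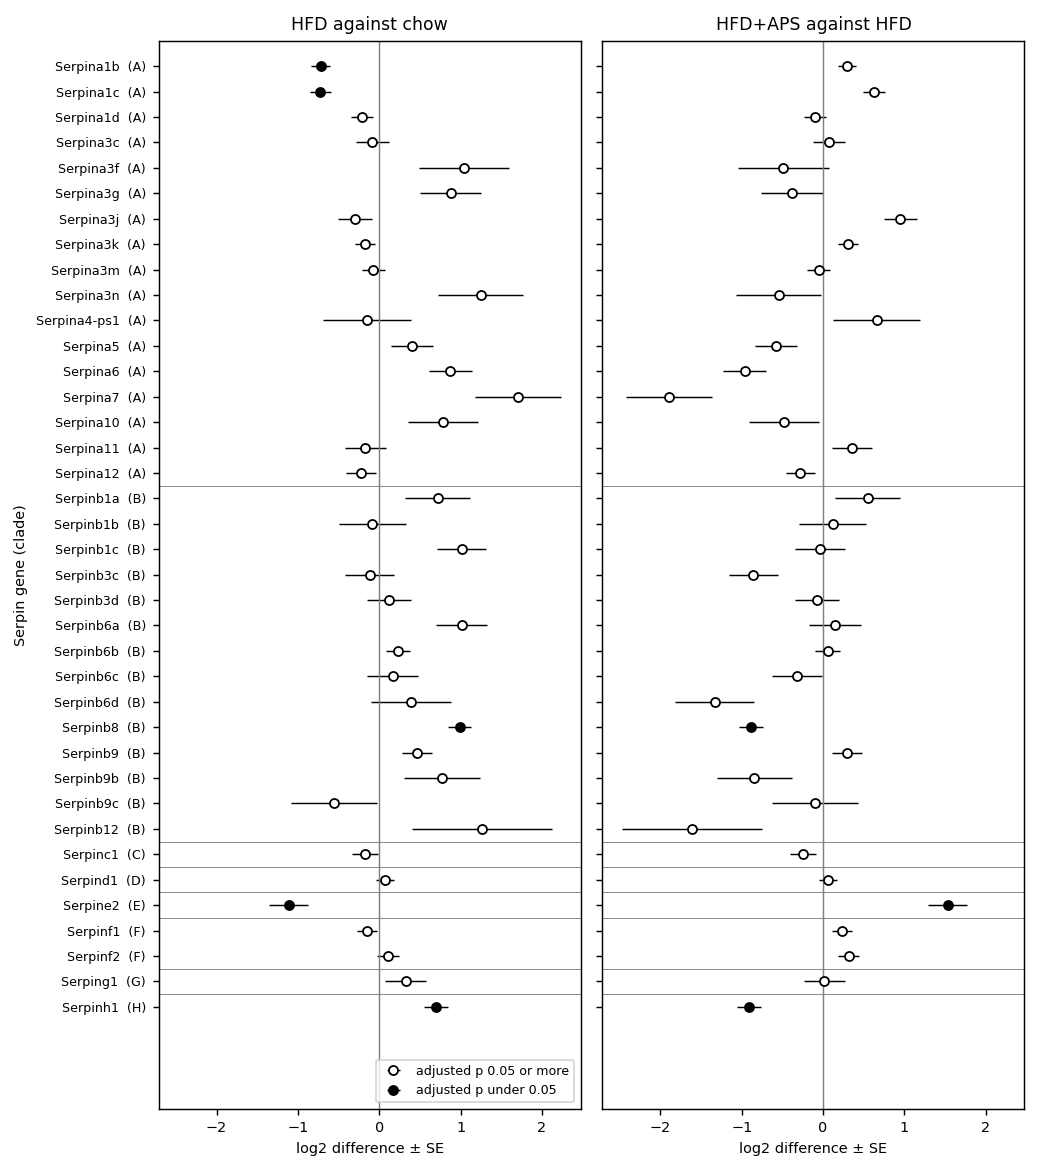
Log2 differences ± SE of 38 Serpin genes, ordered by clade, for HFD against chow (left) and HFD+APS against HFD (right); filled points have an adjusted p under 0.05 in limma. Serpinb8 and Serpinh1 lie right of 0 on the left and left of 0 on the right, Serpine2 does the opposite, and Serpina1b and Serpina1c are filled on the left only.

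Serpinh1, the clade H member, is a heat shock protein that binds procollagen and helps it fold. It read -0.28, -0.08 and -0.0035 in HFD+APS livers, 0.69, 0.58 and 1.09 in HFD livers and 0.01, 0.17 and 0.09 in chow livers. All 3 HFD livers lay above all 6 others, and the HFD+APS livers lay below the chow livers with no overlap. This last gap was narrow, and HFD+APS against chow gave -0.21 ± 0.15 (adjusted p = 0.422). Against chow Serpinh1 rose by 0.70 ± 0.15 in HFD, a 1.62-fold difference with adjusted p = 0.0278. Against HFD it fell by 0.91 ± 0.15 in HFD+APS, which is 1.88-fold lower with adjusted p = 0.0319. Within the shared slide this second difference was -1.07, with adjusted p = 0.0659 when slide was a fixed block. The call for HFD against chow ended without HFD 1, HFD 3 or any of the 3 chow arrays (adjusted p = 0.0506 to 0.076), and the differences then were 0.55 to 0.75. It also ended with slide as a random block (adjusted p = 0.0584) and with no filter on dim probes (adjusted p = 0.0615). The call for HFD+APS against HFD ended without HFD 1, HFD 3, HFD+APS 2, HFD+APS 3 or any of the 3 chow arrays (adjusted p = 0.0526 to 0.0994; differences -0.97 to -0.76), and 10 of 22 alternative fits kept it.

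Genes of collagen, which Serpinh1 helps to fold, were read beside it. Of 13 measured genes of collagens and collagen processing, Col3a1 (1.79 ± 0.30, adjusted p = 0.0151) and Col1a1 (2.08 ± 0.45, adjusted p = 0.0294) rose and P4ha1, a subunit of prolyl hydroxylase, fell (-0.75 ± 0.17, adjusted p = 0.0306) in HFD against chow. Against HFD, 0 of the 13 passed in limma in HFD+APS and 0 had a difference above 0, with Col3a1 at -1.49 ± 0.30 (adjusted p = 0.0585). In HFD+APS against chow P4ha1 fell (-0.93 ± 0.17, adjusted p = 0.0318). The list's mean signal was -0.51 to -0.24 in HFD+APS livers, 0.03 to 0.64 in HFD livers and -0.57 to -0.13 in chow livers. Collagen is made mostly by stellate cells and fibroblasts, and the mean of 10 of their markers, 3 of them collagen genes of the same list, was 0.56 to 0.83 in HFD+APS livers, 0.94 to 1.53 in HFD livers and -0.19 to 0.80 in chow livers. The HFD livers were highest in both lists, but for the stellate list this rests on those 3 collagen genes: in a split made after seeing the values, the mean of the other 7 markers was 0.79 to 0.91 in HFD+APS livers, 0.74 to 1.13 in HFD livers and -0.12 to 0.85 in chow livers, with HFD 1 and HFD 2 below every HFD+APS liver. The part of these genes in the Serpinh1 difference was not tested. In whole liver, more cells of a type and more RNA per cell cannot be told apart, and this holds for every gene below.

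**Figure D2:**
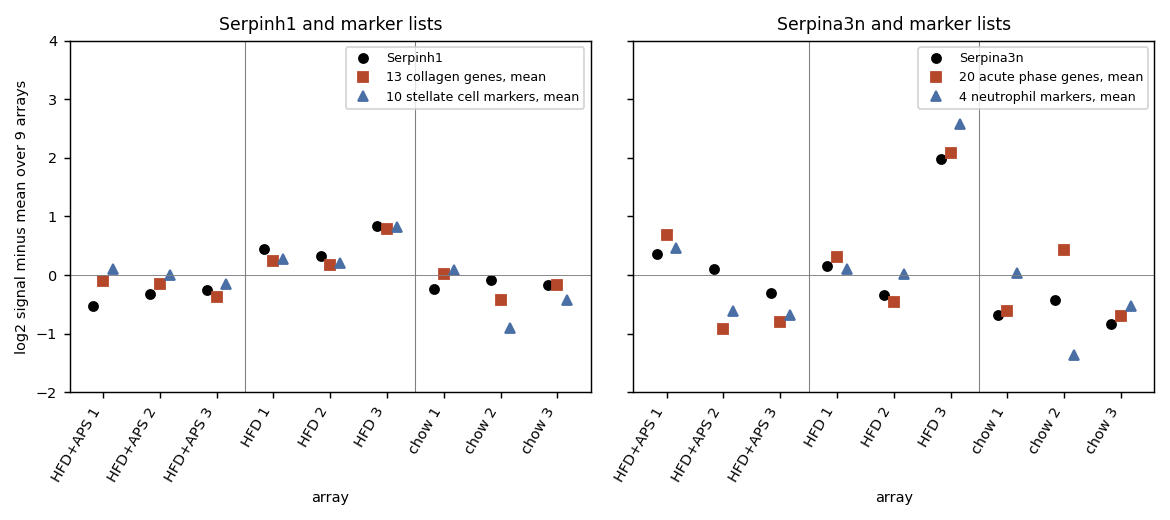
Log2 signal minus its mean over 9 arrays, by array. The left panel shows Serpinh1 with the means of 13 genes of collagens and collagen processing and of 10 stellate cell markers. The right panel shows Serpina3n with the means of 20 acute phase genes and of 4 neutrophil markers. The stellate markers include 3 of the collagen genes. On the left all 3 symbols lie above 0 in each HFD liver, and on the right HFD 3 stands far above the other 8 arrays in all 3 measures.

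Serpine2 of clade E, protease nexin, holds plasminogen activators in check and also blocks thrombin at cell surfaces. It read -1.04, -1.25 and -1.10 in HFD+APS livers, -3.12, -2.34 and -2.51 in HFD livers and -1.29, -1.95 and -1.39 in chow livers. The HFD livers were the lowest with no overlap, and the HFD+APS livers lay above every chow liver. This last gap was narrow, and HFD+APS against chow gave 0.42 ± 0.24 (adjusted p = 0.314). In HFD 1 the spot was not well above background, so its value there is uncertain on the low side. In HFD against chow Serpine2 fell by 1.11 ± 0.24 (2.17-fold lower, adjusted p = 0.0276). Against HFD it rose in HFD+APS by 1.53 ± 0.24 (2.89-fold, adjusted p = 0.0294), and within the shared slide the difference was 1.62, with adjusted p = 0.0904 when slide was a fixed block. The call against chow ended without chow 1, chow 3, HFD 1 or HFD 3 (adjusted p = 0.0512 to 0.0814; differences -1.19 to -0.88), with slide as a random block (adjusted p = 0.0615), with no filter on dim probes (adjusted p = 0.0556) and when only the 2 groups were fitted (adjusted p = 0.0512). The call of HFD+APS against HFD ended when HFD+APS 2, HFD+APS 3, HFD 1, HFD 3 or chow 3 was left out (adjusted p = 0.0558 to 0.0909; differences 1.30 to 1.61), and 11 of 21 alternative fits kept it. With normexp and quantile normalization the differences were smaller, 0.74 in HFD+APS against HFD and -0.49 in HFD against chow, and both stayed past the threshold.

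Among 11 measured genes of the plasminogen system, on which clades E and F act, Anxa2 and S100a10 rose in HFD against chow. These encode the 2 chains of a cell surface receptor for plasminogen and its activator. Anxa2 read -1.01, -1.18 and -1.16 in HFD+APS livers, 0.89, 0.29 and 1.01 in HFD livers and -1.30, -1.83 and -1.46 in chow livers. Its difference was 2.26 ± 0.21 (adjusted p = 0.00214) in HFD against chow and -1.85 ± 0.21 (adjusted p = 0.0113) in HFD+APS against HFD. S100a10 rose by 0.70 ± 0.10 (adjusted p = 0.0112) in HFD against chow and differed by -0.50 ± 0.10 (adjusted p = 0.0593) in HFD+APS against HFD. Plasminogen itself (Plg) gave 0.25 ± 0.17 (adjusted p = 0.342) in HFD against chow. Tissue plasminogen activator (Plat) gave -0.55 ± 0.31 (adjusted p = 0.379) in HFD+APS against HFD.

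Of the antitrypsin genes of clade A, 2 of the 3 measured fell in HFD against chow. They encode α1-antitrypsin, the main plasma inhibitor of neutrophil elastase, in several near-identical mouse copies. Serpina1b read 8.40, 8.09 and 8.10 in HFD+APS livers, 7.79, 7.98 and 7.94 in HFD livers and 8.69, 8.60 and 8.58 in chow livers. The 3 groups did not overlap at all, with HFD lowest and chow highest. In HFD against chow it fell by 0.72 ± 0.12 (1.65-fold lower, adjusted p = 0.0129), and this call held in all 20 alternative fits, 9 of them without an array (adjusted p = 0.00203 to 0.0491). HFD+APS against HFD gave 0.29 ± 0.12 (adjusted p = 0.234; 0.49 within the shared slide), and HFD+APS against chow -0.43 ± 0.12 (adjusted p = 0.0768).

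Serpina1c read 8.41, 8.20 and 8.26 in HFD+APS livers, 7.66, 7.78 and 7.55 in HFD livers and 8.44, 8.17 and 8.56 in chow livers. The HFD livers lay below all 6 others, which overlapped with each other. In HFD against chow it fell by 0.73 ± 0.13 (1.66-fold lower, adjusted p = 0.0175), a call that ended when chow 3 was left out (-0.64 with adjusted p = 0.0556), as it did when HFD 3 was (-0.67 with adjusted p = 0.0522). HFD+APS against HFD gave 0.63 ± 0.13 (adjusted p = 0.0625; 0.74 within the shared slide). Serpina1d, the third copy measured, read 9.87, 9.44 and 9.54 in HFD+APS livers, 9.74, 9.71 and 9.70 in HFD livers and 9.91, 10.09 and 9.78 in chow livers. Its difference in HFD against chow was -0.21 ± 0.14 (adjusted p = 0.333). In HFD+APS against HFD it was -0.10 ± 0.14 (adjusted p = 0.733), with the opposite sign under 3 other normalizations (0.03 to 0.06). Serpina1a and Serpina1e were not analysed here. The hepatocyte marker means were lowest in HFD livers as well, and their part in the antitrypsin values was not tested.

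**Figure D3:**
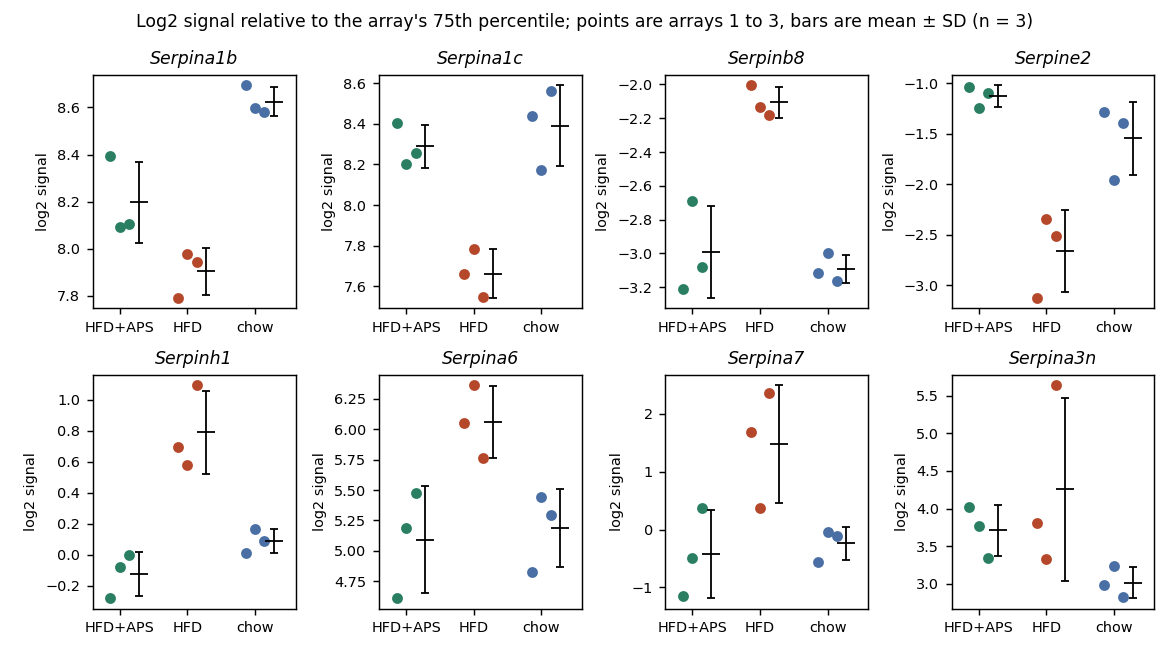
Log2 signal of 8 Serpin genes relative to the array's 75th percentile, by diet; points are the 3 livers of a group and bars the mean ± SD, and each panel has its own axis. HFD livers stand apart from the other 6 in the panels of Serpina1b, Serpina1c, Serpinb8, Serpine2, Serpinh1 and Serpina6, and in the panel of Serpina3n HFD 3 alone is high.

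The Serpina3 genes, mouse relatives of α1-antichymotrypsin, are known as acute phase genes of liver. Serpina3n, which inhibits granzyme B and leukocyte elastase, read 4.02, 3.77 and 3.34 in HFD+APS livers, 3.81, 3.32 and 5.64 in HFD livers and 2.98, 3.23 and 2.82 in chow livers. HFD 3 was far above the other arrays, and both high-fat groups lay above chow without overlap. No difference passed: HFD against chow gave 1.25 ± 0.52 (adjusted p = 0.147), or 0.56 ± 0.24 (adjusted p = 0.2) without HFD 3. HFD+APS against HFD gave -0.55 ± 0.52 (adjusted p = 0.615), which turned to 0.14 ± 0.24 (adjusted p = 0.827) without HFD 3. Of 20 acute phase genes outside the serpins, 18 had differences above 0 in HFD against chow, with a list median of 1.08, but only Socs3, a brake on cytokine signalling, passed, and it fell (-0.57 ± 0.15, adjusted p = 0.0477). In HFD+APS against HFD 0 of the 20 passed in limma and 0 were above 0. The list median was not worked out without HFD 3. The list mean in chow 2 (5.03) lay above those in HFD 1 (4.91) and HFD 2 (4.15).

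Serpina3k, a plasma serpin known as kallikrein-binding protein in rat, read 9.97, 9.68 and 9.55 in HFD+APS livers, 9.50, 9.45 and 9.34 in HFD livers and 9.61, 9.64 and 9.55 in chow livers. On this probe HFD was lowest with no overlap, but the differences were small. They were 0.30 ± 0.12 (adjusted p = 0.25) in HFD+APS against HFD and -0.17 ± 0.12 (adjusted p = 0.376) in HFD against chow. Its second detected probe gave -0.26 ± 0.20 in HFD+APS against HFD, the opposite sign. In HFD+APS against chow the second probe gave -0.68 ± 0.20, against 0.13 ± 0.12 on the probe used. In HFD against chow it gave -0.42 ± 0.20. Serpina3j showed its largest difference in HFD+APS against HFD. It read 6.54, 6.65 and 6.57 in HFD+APS livers, 5.33, 5.77 and 5.80 in HFD livers and 6.14, 5.49 and 6.18 in chow livers. The HFD+APS livers lay above all 6 others, at 0.95 ± 0.21 over HFD (adjusted p = 0.0659; 0.90 within the shared slide). The largest difference was in HFD against chow for Serpina3f (1.04 ± 0.56, adjusted p = 0.237) and Serpina3g (0.88 ± 0.38, adjusted p = 0.155). Without HFD 3 the Serpina3g difference was 0.55 ± 0.35. The largest difference of Serpina3c was -0.09 ± 0.20 in HFD against chow. For Serpina3m it was -0.13 ± 0.14 in HFD+APS against chow, with the opposite sign under 3 other normalizations (0.06 to 0.18).

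The 2 hormone carriers of clade A had their highest means in HFD livers. Serpina6, corticosteroid-binding globulin, read 4.61, 5.19 and 5.48 in HFD+APS livers, 6.05, 6.36 and 5.76 in HFD livers and 4.82, 5.44 and 5.30 in chow livers. All HFD livers lay above the other 6. The differences were 0.87 ± 0.26 in HFD against chow (1.83-fold, adjusted p = 0.069) and -0.97 ± 0.26 in HFD+APS against HFD (1.95-fold lower, adjusted p = 0.118), and -1.45 within the shared slide. Serpina7, thyroxine-binding globulin, on the X chromosome, read -1.15, -0.50 and 0.37 in HFD+APS livers, 1.69, 0.37 and 2.36 in HFD livers and -0.56, -0.04 and -0.11 in chow livers. HFD 2 only just cleared the highest HFD+APS liver. The differences were 1.71 ± 0.53 in HFD against chow (3.27-fold, adjusted p = 0.0724) and -1.90 ± 0.53 in HFD+APS against HFD (3.73-fold lower, adjusted p = 0.124), and they were 1.27 and -1.46 without HFD 3. Neither carrier passed the test in either comparison.

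Of 12 measured genes of hormone transport and hormone receptors, Dio1, the deiodinase that activates thyroid hormone in liver, rose in HFD against chow (1.70 ± 0.22, adjusted p = 0.00788). Dio1 in HFD+APS against HFD gave -0.92 ± 0.22 (adjusted p = 0.0843), and 0 of the 12 passed in limma. The glucocorticoid receptor gene Nr3c1 gave 0.34 ± 0.15 in HFD against chow (adjusted p = 0.154), and the thyroid hormone receptor gene Thra gave -0.48 ± 0.19 (adjusted p = 0.128). Angiotensinogen (Agt), a serpin by fold but not by name and so outside the 39, gave -0.23 ± 0.09 in HFD+APS against chow (adjusted p = 0.16).

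Among the remaining clade A genes Serpina10, the cofactor-dependent inhibitor of factor X known as protein Z inhibitor, read 1.37, 1.45 and 1.71 in HFD+APS livers, 1.46, 1.40 and 3.12 in HFD livers and 0.92, 1.57 and 1.13 in chow livers. Only HFD 3 stood out. The HFD against chow difference was 0.78 ± 0.43 (adjusted p = 0.252), or 0.22 ± 0.20 (adjusted p = 0.536) without HFD 3, and its second probe read 1.95 in HFD 3 against 0.26 to 0.86 on the other 8 arrays. Serpina12, the adipokine vaspin, read -3.46, -3.55 and -3.20 in HFD+APS livers, -2.90, -3.24 and -3.23 in HFD livers and -3.19, -2.94 and -2.57 in chow livers. It was not well above background on any HFD array, and the HFD and chow groups overlapped, with a difference of -0.23 ± 0.18 (adjusted p = 0.434). The HFD+APS livers lay below chow by a narrow gap, and HFD+APS against chow gave its largest difference, -0.50 ± 0.18 (adjusted p = 0.14). Serpina11 (0.36 ± 0.25) and the pseudogene Serpina4-ps1 (0.66 ± 0.54) had their largest differences in HFD+APS against HFD, as had Serpina5, protein C inhibitor (-0.58 ± 0.26, not well above background on any HFD array). None of these 3 passed (adjusted p = 0.475, 0.553 and 0.291).

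In clade B, whose members guard cells against their own proteases, 11 of 14 differences were above 0 in HFD against chow, with a median of 0.43, and 1 passed. Over all features 45.9% were above 0. Only 8 of the 14 genes were well above background on all 9 arrays, and all HFD arrays lay on the slide with the brighter negative controls. The part of that floor in the clade B differences was not tested. In HFD+APS against HFD 5 of 14 were above 0, as were 50.1% of all features, and all 4 chromosome 1 genes were below 0. Of these 4 only Serpinb8 passed. Serpinb3d gave -0.08 ± 0.27, and Serpinb12 was well above background on 5 arrays. Serpinb3c gave -0.86 ± 0.30 over all arrays but -0.08 within the shared slide. Serpinb8, whose human counterpart inhibits furin, read -3.21, -2.69 and -3.08 in HFD+APS livers, -2.004, -2.13 and -2.18 in HFD livers and -3.12, -3.00 and -3.16 in chow livers. The HFD livers lay above all 6 others, and the other groups overlapped. It rose by 0.99 ± 0.14 in HFD against chow (1.98-fold, adjusted p = 0.0111) and fell by 0.89 ± 0.14 in HFD+APS against HFD (1.85-fold lower, adjusted p = 0.0311), with -1.10 within the shared slide (adjusted p = 0.0445 when slide was a fixed block). With normexp and quantile normalization the first difference was 0.42, still past the threshold, and the second -0.35 (adjusted p = 0.0594). The first call held without each array in turn. The second ended without HFD 1, HFD 2, HFD 3, HFD+APS 3 or any of the 3 chow arrays (adjusted p = 0.0526 to 0.103; differences -0.92 to -0.84). It also ended with quantile normalization (adjusted p = 0.0602), in the authors' deposited table (adjusted p = 0.065), with no filter on dim probes (adjusted p = 0.0707) and when only the 2 groups were fitted (adjusted p = 0.105), and 7 of 22 alternative fits kept it.

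The other detected Serpinb8 probe did not show either difference. It read -4.39, -3.45 and -3.31 in HFD+APS livers, -3.75, -3.44 and -3.68 in HFD livers and -3.74, -3.48 and -3.68 in chow livers, and was not well above background on any HFD array. Its differences were 0.01 ± 0.26 in HFD against chow and -0.09 ± 0.26 in HFD+APS against HFD, and with the mean of both probes neither comparison was called (adjusted p = 0.109 and 0.209). The 2 probes lie at different places in the gene (chr1:109499452-109501197 and chr1:109504731-109504790, mm9), and both are dim.

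Serpinb1a, which inhibits neutrophil elastase and cathepsin G inside leukocytes, read 1.87, 2.88 and 2.54 in HFD+APS livers, 1.59, 2.79 and 1.27 in HFD livers and 0.99, 1.23 and 1.29 in chow livers. All HFD+APS livers lay above chow, at 1.26 ± 0.40 (2.40-fold, adjusted p = 0.105), and the HFD livers overlapped with both. Its neighbour Serpinb1c read -1.85, -1.02 and -1.42 in HFD+APS livers, -1.51, -0.75 and -1.90 in HFD livers and -2.49, -2.49 and -2.21 in chow livers. Both high-fat groups lay above chow, at 1.01 ± 0.31 for HFD (adjusted p = 0.0697) and 0.97 ± 0.31 for HFD+APS (adjusted p = 0.106), but its second probe gave -0.29 ± 0.17 and 0.11 ± 0.17. Among 8 measured genes of a list of leukocyte granule proteases and lysosomal cathepsins, 0 passed in limma in any of the 3 comparisons. Cathepsin S (Ctss), a lysosomal cathepsin, gave 0.99 ± 0.41 (adjusted p = 0.141) in HFD against chow.

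Serpinb6a, an inhibitor of cathepsin G and trypsin-like proteases in many cell types, read 1.07, 0.60 and 0.86 in HFD+APS livers, 0.58, 0.75 and 0.77 in HFD livers and 0.33, -1.08 and -0.18 in chow livers. Every liver on a high-fat diet lay above every chow liver, by 1.01 ± 0.32 for HFD (adjusted p = 0.0744) and 1.16 ± 0.32 for HFD+APS (adjusted p = 0.078). Chow 2 was the lowest array, and with 1 array left out the HFD against chow difference ran from 0.63 to 1.33. Serpinb9, which shields cytotoxic lymphocytes and other cells from granzyme B, read -1.58, -1.99 and -1.96 in HFD+APS livers, -2.21, -2.37 and -1.81 in HFD livers and -2.48, -2.79 and -2.52 in chow livers. Again both high-fat groups lay above chow, with 0.76 ± 0.18 for HFD+APS (1.69-fold, adjusted p = 0.0578) and 0.46 ± 0.18 for HFD (adjusted p = 0.128), and its second probe gave 0.54 ± 0.22 and 0.27 ± 0.22. HFD+APS against HFD gave 0.14 ± 0.32 for Serpinb6a and 0.29 ± 0.18 for Serpinb9 (adjusted p = 0.848 and 0.434).

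Markers of other liver cells were read beside the clade B genes, and the list means were not tested. The mean of 9 Kupffer cell markers was 1.59 to 2.61 in HFD+APS livers, 1.98 to 2.56 in HFD livers and 0.90 to 1.97 in chow livers, and the HFD+APS range overlapped that of chow while the lowest HFD mean lay just above the highest chow mean. Of the 9 markers 8 had differences above 0 in HFD against chow and in HFD+APS against chow, and 0 passed in limma in either. Of 7 monocyte and macrophage markers Ly6c2 (1.89 ± 0.26, adjusted p = 0.00944) and Trem2 (2.33 ± 0.50, adjusted p = 0.0278) rose in HFD against chow. Of 8 sinusoidal endothelial markers Clec4g (0.80 ± 0.20, adjusted p = 0.0394) and Oit3 (0.92 ± 0.24, adjusted p = 0.0461) rose there. Of 10 lymphocyte and NK markers Cd4 fell (-0.72 ± 0.18, adjusted p = 0.0404). The part of these cells in the clade B values was not tested.

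The other 9 clade B genes passed in no comparison. Their largest differences were in HFD+APS against HFD for Serpinb12 (-1.61 ± 0.86), Serpinb6d (-1.33 ± 0.49), Serpinb9b (-0.84 ± 0.47), Serpinb6c (-0.32 ± 0.31) and Serpinb1b (0.12 ± 0.41, or -0.03 with normexp and quantile normalization). They were in HFD+APS against chow for Serpinb3c (-0.97 ± 0.30), Serpinb9c (-0.65 ± 0.53) and Serpinb6b (0.29 ± 0.15), and in HFD against chow for Serpinb3d (0.12 ± 0.27). Serpinb9b read -0.69 in HFD 3, against -2.29 in HFD 1 and -2.65 in HFD 2, and without HFD 3 its difference was -0.25 ± 0.25. Serpinb12 and Serpinb6d were well above background on 5 arrays each, and their replicates were far apart, from -5.98 to -2.63 for Serpinb12 in HFD+APS livers.

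**Figure D4:**
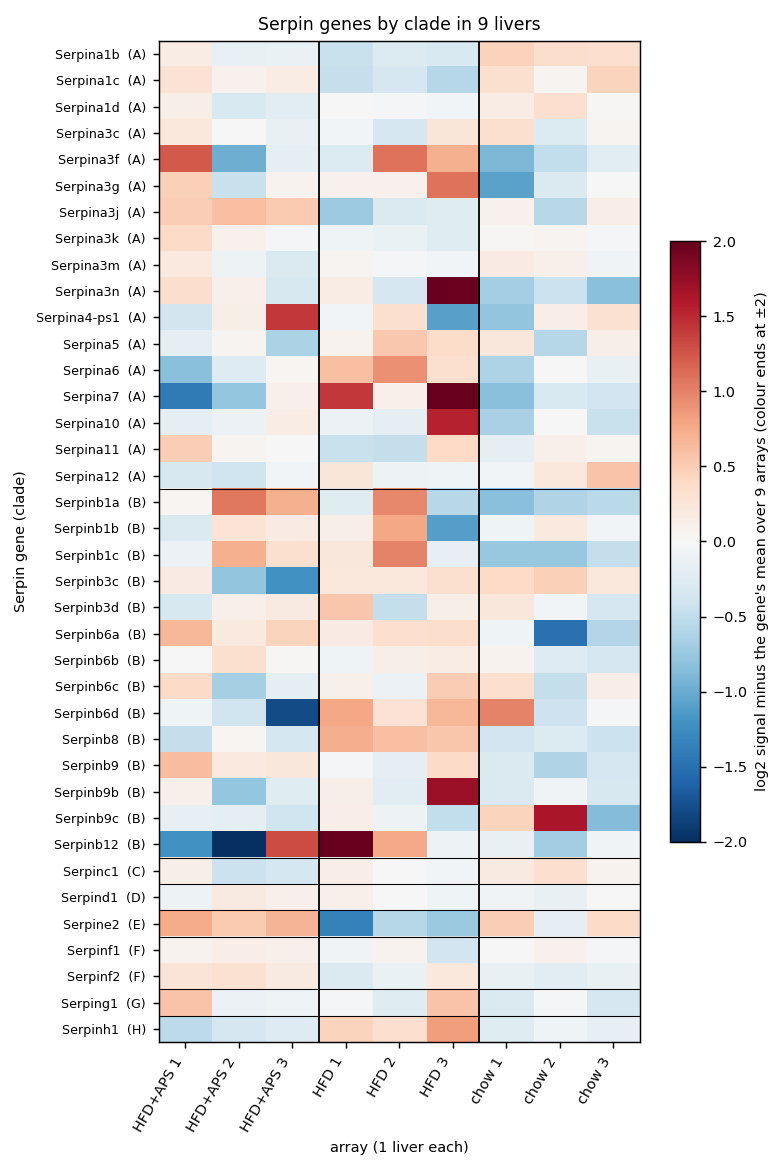
Log2 signal of 38 Serpin genes, each minus its mean over the 9 arrays, with genes by clade in rows and livers in columns; red is above the gene's mean and blue below, and colours stop at 2 log2 units. Within clade A Serpina1b and Serpina1c are blue in HFD livers while Serpina6 and Serpina7 are red there, and HFD 3 has dark red cells in Serpina3n, Serpina7, Serpina10 and Serpinb9b.

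No serpin of clades C, D, F or G passed the test in any of the 3 comparisons. Serpinc1, antithrombin, read 8.98, 8.43 and 8.51 in HFD+APS livers, 8.996, 8.85 and 8.82 in HFD livers and 9.04, 9.21 and 8.94 in chow livers. Its differences were -0.42 ± 0.16 in HFD+APS against chow (adjusted p = 0.149), -0.25 ± 0.16 in HFD+APS against HFD (adjusted p = 0.447) and -0.17 ± 0.16 in HFD against chow (adjusted p = 0.489). Both HFD+APS 2 and HFD+APS 3, which share a slide, were lower than the rest, and within the slide of HFD+APS 1 the HFD+APS against HFD difference was 0.09. Over all arrays its second probe gave 0.21 ± 0.09 in HFD+APS against HFD, the opposite sign to the probe used.

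Serpind1, heparin cofactor II, which inhibits thrombin, read 6.94, 7.22 and 7.14 in HFD+APS livers, 7.13, 7.04 and 6.95 in HFD livers and 6.97, 6.88 and 7.05 in chow livers. All groups overlapped, and the differences were 0.06 ± 0.11 (HFD+APS against HFD), 0.08 ± 0.11 (HFD against chow) and 0.13 ± 0.11 (HFD+APS against chow). Among 12 coagulation genes on which Serpinc1, Serpind1 and Serpina10 act or that work beside them, F9 rose in HFD against chow (0.64 ± 0.09, adjusted p = 0.0106), and F9 (0.44 ± 0.09, adjusted p = 0.046) and F13b (0.61 ± 0.13, adjusted p = 0.0467) rose in HFD+APS against chow. Prothrombin (F2) gave 0.01 ± 0.16 in HFD against chow. Of the 12, 0 passed in HFD+APS against HFD in limma, with F7 at 0.61 ± 0.17 (adjusted p = 0.127).

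Serpinf1, the secreted pigment epithelium-derived factor, which does not inhibit proteases, read 7.92, 7.98 and 7.96 in HFD+APS livers, 7.78, 7.92 and 7.46 in HFD livers and 7.86, 7.94 and 7.82 in chow livers. HFD 3 was the lowest array. Serpinf2, α2-antiplasmin, read 6.93, 6.98 and 6.87 in HFD+APS livers, 6.40, 6.56 and 6.89 in HFD livers and 6.53, 6.46 and 6.54 in chow livers. The HFD+APS livers lay above chow, at 0.42 ± 0.13 (adjusted p = 0.105), and above HFD 1 and HFD 2 but not HFD 3. HFD+APS against HFD gave 0.31 ± 0.13 for Serpinf2 (adjusted p = 0.264) and 0.23 ± 0.13 for Serpinf1 (adjusted p = 0.377).

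Serping1, C1 inhibitor, which restrains complement C1 and plasma kallikrein, read 7.12, 6.43 and 6.46 in HFD+APS livers, 6.53, 6.32 and 7.12 in HFD livers and 6.27, 6.51 and 6.22 in chow livers. HFD+APS 1 and HFD 3 were the high arrays, and these also had the highest acute phase means of their groups (5.29 in HFD+APS 1 and 6.69 in HFD 3). Its differences were 0.01 ± 0.25 in HFD+APS against HFD (-0.02 with quantile normalization), 0.33 ± 0.25 in HFD against chow and 0.34 ± 0.25 in HFD+APS against chow (adjusted p = 0.988, 0.41 and 0.442). Without HFD 3 the HFD against chow difference was 0.09 ± 0.23. Of 9 measured complement and contact genes C1ra, a protease that Serping1 blocks, fell in HFD against chow (-0.44 ± 0.11, adjusted p = 0.0434), and C1qb gave 1.31 ± 0.43 (adjusted p = 0.0835).

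Of 17 measured protease inhibitors outside the family, Cstb, the cathepsin inhibitor cystatin B, rose in HFD against chow (0.50 ± 0.12, adjusted p = 0.0356). Spint2, an inhibitor of membrane serine proteases, fell in HFD+APS against chow (-1.74 ± 0.32, adjusted p = 0.0326), and 0 of the 17 passed in HFD+APS against HFD in limma, where Cstb gave -0.50 ± 0.12 (adjusted p = 0.0832). Of 11 transcription factors known to act on liver serpin promoters, 0 passed in any of the 3 comparisons in limma. Hnf4a, a hepatocyte factor, gave -0.41 ± 0.20 (adjusted p = 0.198) in HFD against chow.

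The array HFD 3 was the highest of the 9 for 8 of the 39 Serpin genes (20.5%), against 14.1% of all features: Serpina3g, Serpina3n, Serpina7, Serpina10, Serpinb6c, Serpinb9b, Serping1 and Serpinh1. It was the lowest for 5, against 18.5% of all features. Serpina3n was 2.07 log2 units above the mean of HFD 1 and HFD 2 there, Serpinb9b 1.78 and Serpina10 1.69, while Serpina1b was 0.06 above and Serpinb8 0.11 below it. The adipocyte markers Fabp4, Cfd and Cidec, 3 of 6 listed, had a mean of 0.40 to 1.23 in HFD+APS livers, 2.63 to 4.23 in HFD livers and 0.25 to 2.43 in chow livers, and 0 of the 3 passed in any comparison in limma. HFD 1 held the highest of these means, and the part of fat cells in the Serpin values was not tested. Of the markers measured for neutrophils (4), cholangiocytes (5), mesothelium (3), pancreatic acinar cells (3) and red blood cells (3), 0 passed in any comparison in limma.

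For 10 Serpin genes a second detected probe was at hand. The signs of both probes matched for 8 of 10 genes in HFD against chow, and for 7 of 10 in HFD+APS against HFD and in HFD+APS against chow. The median gap between the 2 differences was 0.27, 0.40 and 0.34 log2 units, and the widest were 1.30 for Serpinb1c in HFD against chow and 0.79 for Serpinb8 in HFD+APS against HFD. Serpina10, Serpina3f and Serpinb9 gave the same signs on both probes in HFD against chow and in HFD+APS against HFD.

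**Figure D5:**
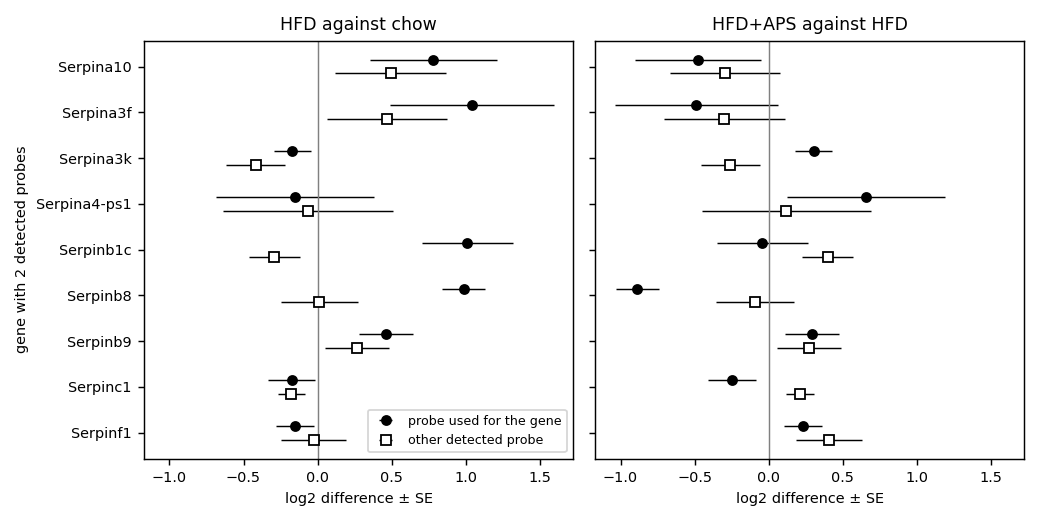
Log2 differences ± SE from the probe used (filled circles) and the other detected probe (open squares) of 9 Serpin genes with 2 detected probes, for HFD against chow (left) and HFD+APS against HFD (right). The 2 probes part by 0.97 log2 units for Serpinb8 and by 1.30 for Serpinb1c in HFD against chow, and lie on opposite sides of 0 for Serpina3k and Serpinc1 in HFD+APS against HFD.

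The 20 Serpin genes without a detected probe were Serpina1f, Serpina3a, Serpina3b, Serpina3i and Serpina9 in clade A, Serpine3 in clade E and Serpini1 and Serpini2 in clade I. In clade B they were Serpinb2, Serpinb3a, Serpinb3b, Serpinb5, Serpinb7, Serpinb9d, Serpinb9e, Serpinb9f, Serpinb9g, Serpinb10, Serpinb11 and Serpinb13. They were not well above background on 3 or more arrays, which says that no difference was detectable for them here, not that they are silent in liver.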

How the data were processed

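Total RNA of 9 mouse livers was hybridised by the authors to 9 Agilent arrays of 1 colour (Cy3), 1 liver each. The deposited scanner files hold, per the file headers, an intensity per spot that Feature Extraction (10.7.1.1 in the headers, 10.7 in the submitters' processing notes) had background-subtracted and detrended within its array. The table of all samples holds the authors' deposited log2 values; its columns and the log2 processed signals of the same arrays had correlations of 0.999 or more, and it had column medians of 4.98 to 4.99 and was not centred by gene, and how it was normalized is not given in the sources used here. A single colour leaves no ratio whose direction could be in doubt.

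Here the processed signals were put on the log2 scale with R 4.3.3, outlier spots were left out, replicate spots were averaged, and the 75th percentile of the array was taken off. Probes entered the fit if well above background on at least 3 of 9 arrays (26493 of 41174 probes), and the brightest on average stood for its gene, which left 17644 features and 5 missing values. Names came from RefSeq (GRCm38.p6) by accession for 27668 probes and by symbol or synonym for 5531 and 460, and 3489 features kept the file's name. Probe positions are the files' mm9 positions. Promoters came from RefSeq's listed starts, and Python 3.11.15 with Biopython 1.88 aligned them. Limma 3.58.1 (lmFit and eBayes) fitted the 3 groups over all 9 arrays, with 6 residual and 2.2 prior degrees of freedom, and was tested on simulated data. No molecules are counted on arrays, so the number of arrays limits the precision.

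The members, 9 lists of related genes and 12 lists of cell type markers were chosen with earlier results of these data known. Serpin genes described with all 9 values are those called in any comparison, the brightest of each clade and a list of well-studied serpins. Serpina3j and Serpinb1c were added after their values were seen, as were Serpina9 and Serpinb9g, which missed the detection rule. The other members are given by their largest difference, and of each related list up to 4 members with the smallest p. Slide numbers come from the array barcodes. The fit with slide as a fixed block was chosen after seeing the data. The alternatives were other normalizations, the authors' table, other probe filters and summaries, blocks for slide and replicate number, array weights, fits on fewer groups, and the loss of each array. Same-numbered livers of different groups correlated at -0.17 to 0.16 in their deviations, so the numbers do not pair them. No column of per-sample values was left unmapped. Of the genes counted, 1 Serpin gene and 1 gene of a related list are not reported here.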

Additional observations from a re-analysis of the deposited data

How the results depend on the processing

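The 78 gene differences examined kept their direction in 57 cases under every alternative, and 21 changed it. Of 5 Serpin genes called in HFD against chow, 3 were called with no filter on dim probes or with slide as a random block and 8 with array weights, and 2 to 6 when 1 array was left out. Of 3 called in HFD+APS against HFD, 0 were called with no filter, with only the 2 groups compared, with the replicate number as a block or within 1 slide, 1 with slide as a fixed block (chosen after seeing the data), 7 with array weights and 0 to 4 when 1 array was left out. The livers share only their numbers, so the replicate block is no paired analysis; with it 4 genes were called in HFD against chow, where Serpine2 was lost (adjusted p = 0.0557), and 0 in HFD+APS against chow. In HFD+APS against chow, where 0 were called in limma, 3 were called with normexp and quantile normalization, 1 each with quantile normalization, the authors' table and probes well above background on all arrays, 8 with array weights and 0 to 3 when 1 array was left out. Changes of direction in HFD+APS against HFD were as follows. Serpina1d gave 0.034 with normexp and quantile normalization, 0.061 with quantile normalization, 0.056 in the authors' deposited table and 0.15 within the slide or with slide as a fixed block. Within the slide and with the fixed block Serpina4-ps1 gave -0.10, Serpinb1a -0.011, Serpinb1b -0.22, Serpinb6c 0.22, Serpinc1 0.093 and Serpind1 -0.10. With normexp and quantile normalization Serpina12 gave 0.034, Serpinb1b -0.035 and Serping1 -0.020, and Serping1 also gave -0.024 with quantile normalization. With array weights Serpinb1b gave -0.14. Against chow, Serpina1c in HFD+APS gave 0.0092 with quantile normalization and 0.017 in the authors' deposited table, where Serpina1d gave 0.019. Serpina3k gave -0.27 with the mean of its probes. Serpina3m gave 0.056 with normexp, 0.11 with quantile normalization and 0.18 in the authors' deposited table. With array weights Serpina6 gave 0.10 and Serpina7 0.18. With 1 array left out the differences in HFD against chow ran from -0.24 to 0.059 for Serpina3c, -0.13 to 0.39 for Serpinb3d and -0.030 to 0.21 for Serpinf2. In HFD+APS against HFD they ran from -1.01 to 0.14 for Serpina3n, -0.77 to 0.087 for Serpina10, -0.40 to 0.53 for Serpinb1b and -0.21 to 0.25 for Serping1. Against chow, HFD+APS differences ran from -0.29 to 0.15 for Serpina6, -0.59 to 0.17 for Serpina7 and -0.051 to 0.21 for Serpinb8. The cause of these changes was not tested. The share of all features called under each alternative was not worked out, so the counts of calls are no result about the family. The within-slide fit has 1 HFD+APS array, whose spread is taken from the HFD arrays, and dim probes limit what can be detected.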

Other observations

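Some probes that missed the detection rule stood higher on a single array. Serpina9, a clade A serpin known from germinal centre B cells, read -5.56, -4.63 and -2.55 in HFD+APS livers, -4.63, -4.10 and -5.51 in HFD livers and -4.05, -5.01 and -5.34 in chow livers. Serpinb9g, a clade B gene, read -5.47, -4.84 and -2.73 in HFD+APS livers, -5.07, -4.85 and -5.42 in HFD livers and -4.62, -4.46 and -4.52 in chow livers. HFD+APS 3 was the highest of the 9 arrays for both, and both were picked after their values were seen. Probes of other undetected genes peaked on other arrays. A Serpinb2 probe did so in chow 2 (-3.67), a Serpinb10 probe in HFD 3 (-3.91) and the Serpinb9e probe in chow 1 (-3.82). No trait of HFD+APS 3 can be read from such peaks. Serpini1, neuroserpin, was well above background on 2 arrays. The pseudogene Serpina4-ps1 also read highest in HFD+APS 3 on the probe used, at 1.02 against -1.48 to -0.06 on the other 8 arrays, while on its other probe HFD+APS 3 read -1.50 and was not the highest.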
